A study of Mus musculus with 12 samples.

Results

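The genes described here encode the neuronal nicotinic acetylcholine receptor subunits Chrna3, Chrna4, Chrna5, Chrna6, Chrna7, Chrnb2, Chrnb3 and Chrnb4. Every probe set that the annotation of the array gave to exactly 1 of these 8 genes was taken, which gave 18 of the 45037 probe sets tested, whatever their values. There were 3 each for Chrna3, Chrna4 and Chrnb2, 2 each for Chrna5, Chrna6, Chrna7 and Chrnb4, and 1 for Chrnb3. RNA came from the ventral tegmental area (VTA), the midbrain region next to the substantia nigra whose dopaminergic neurons project to the ventral striatum and the prefrontal cortex. The mice were wild type C57BL/6 animals (given as C57 in the labels) with no treatment stated, young at 2 months, middle-aged at 10 months and late middle-aged at 18 months. There were 4 arrays for each age, and each array held RNA pooled from 5 mice, so errors and p-values describe how pools varied, and the variation among individual mice was not measured. The complete region was dissected by hand under a microscope and no cells were sorted.

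Nicotinic receptors are cation channels in the cell membrane that open when acetylcholine or nicotine binds, and each is a ring of 5 subunits. The alpha subunits other than α5 carry the main face of the binding site, the β2 and β4 subunits complete it, and α5 and β3 are accessory subunits that change the conductance, calcium entry or assembly of the receptor. In the rodent VTA, acetylcholine arrives from the pedunculopontine and laterodorsal tegmental nuclei, and receptors built on α4 and β2, often with α5 or with α6 and β3, excite dopaminergic neurons. The α7 subunit can form a channel by itself, and receptors of α3 and β4 are best known from the medial habenula, the interpeduncular nucleus beside the VTA and the autonomic ganglia. In the mouse reference gene table, Chrna5, Chrna3 and Chrnb4 stood next to each other on chromosome 9 with no other gene starting between them, Chrna5 and Chrna3 overlapped on opposite strands, and Chrnb3 and Chrna6 stood next to each other on chromosome 8.

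At 18 against 2 months, 3 subunit genes had a probe set that rose, Chrna5 by 1.96-fold, Chrna7 by 1.67-fold and Chrna6 by 1.6-fold. No subunit probe set was called lower. Of Chrna4 and Chrnb2, the main subunits of VTA receptors, 0 of 6 probe sets passed the test. A probe set was called changed when its adjusted p was under 0.05 (Benjamini-Hochberg over all 45037 probe sets, limma) and its change was over 1.3-fold. The 3 of 18 probe sets called compare with 7.46% of all probe sets called, or 4.55% called higher and 2.91% called lower. At an unadjusted p under 0.05 there were 7 of 18, against 23.6% of all probe sets. Of these 7, Chrna3 1444368_at and Chrnb4 1425849_at were lower at 18 months and the others higher. The samples of 18 and 2 months did not overlap in 10 of the 18, of which 5 were all higher and 5 all lower at 18 months. Over all probe sets, 23.6% were without overlap, 10.4% all higher and 13.1% all lower. Among the 5 all lower, Chrna3 1444368_at was so only with young arrays 3 and 4 averaged, as described below. The median log2 change of the 18 was 0.06, beside −0.06 over all probe sets, and 10 of the 18 changes were positive.

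**Figure D1:**
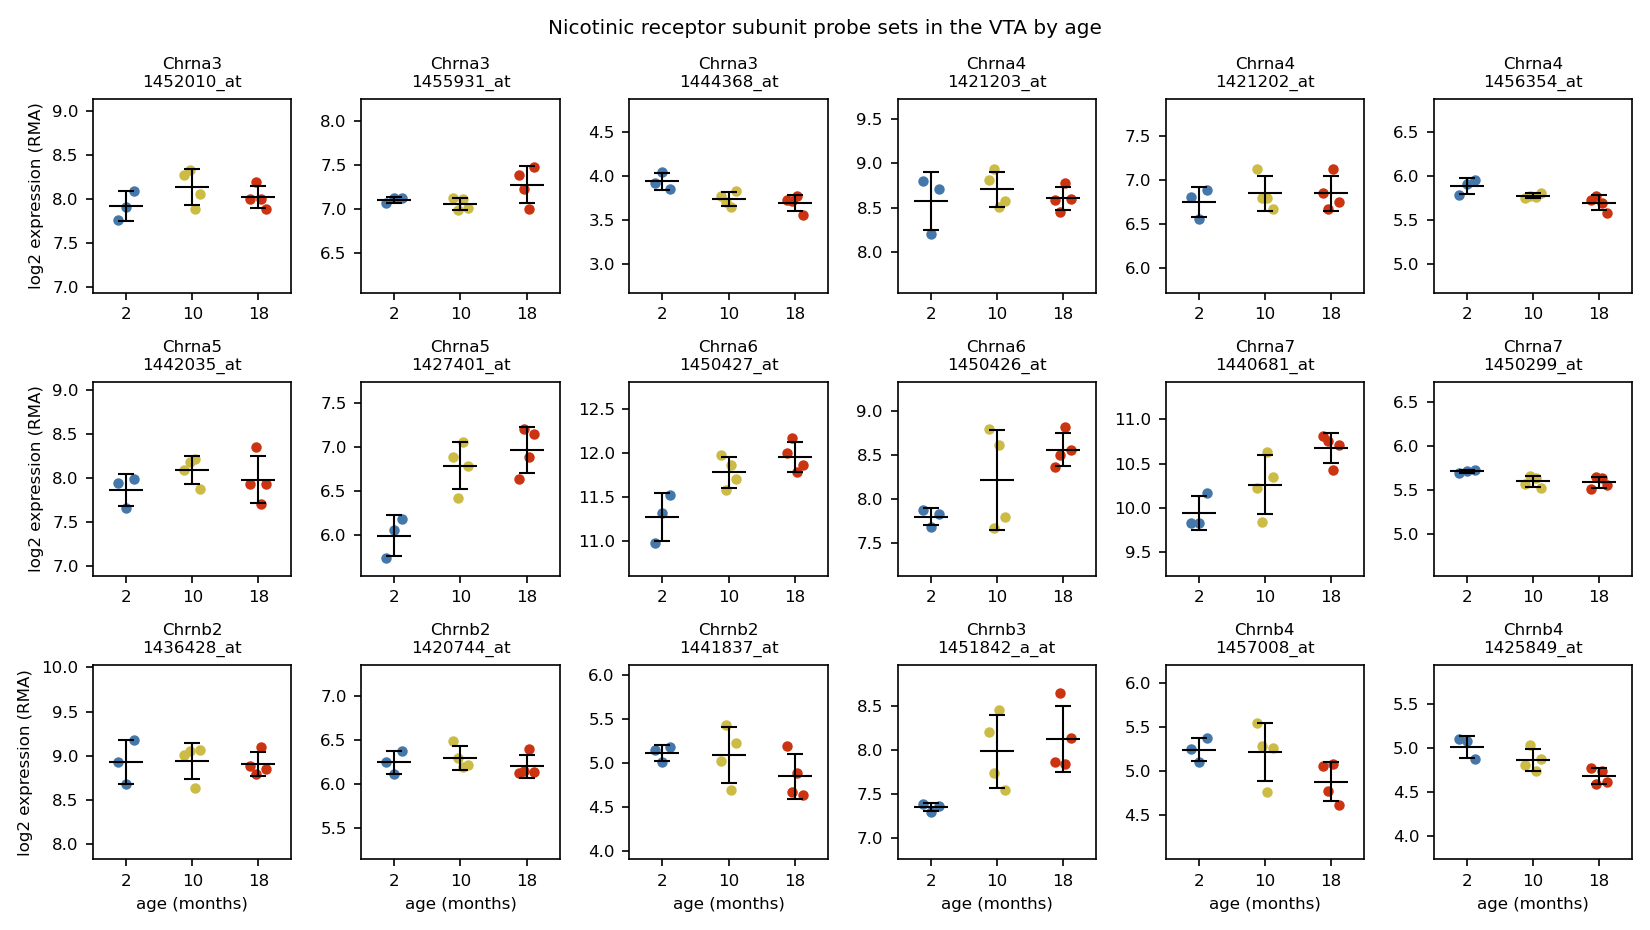
Log2 expression (RMA, vertical axis) of the 18 subunit probe sets at 2, 10 and 18 months (horizontal axis). Each point is 1 sample, the young group has 3 because young arrays 3 and 4 were averaged, and bars give the mean ± SD; every panel spans the same number of log2 units. Chrna5 1427401_at, Chrna6 1450427_at and Chrna7 1440681_at have all their 18-month samples above all their 2-month samples.

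Deposited values are log2 expression per probe set, so a difference of 1 is a doubling. Young arrays 3 and 4 were closer to each other than any other pair of arrays of 1 age (correlation over probe sets 0.998, against 0.967 to 0.996 in the 17 other pairs) and were averaged, so that n is 3 at 2 months and 4 at each later age. The presence of dopaminergic cells in the tissue was checked with their markers, which were not used to tell the VTA from the substantia nigra. The study checked its dissection by staining the cut sections for tyrosine hydroxylase and by quantitative PCR of Calb1 in both regions. Slc6a3, the dopamine transporter, had a log2 level of 14.12 ± 0.05 at 18 months and 13.92 ± 0.10 at 2 months (SD, n = 4 and 3), and Th, the rate-limiting enzyme of dopamine synthesis, 13.84 ± 0.02 and 13.00 ± 0.32. In RNA of a whole region, a change in the number of cells that express a gene and a change in RNA per cell cannot be told apart.

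Of the accessory subunits, Chrna5 showed the largest change of the 18 probe sets. Its probe set 1427401_at had log2 levels of 5.74, 6.05 and 6.19 at 2 months, 6.88, 6.42, 7.05 and 6.79 at 10 months and 6.64, 7.20, 6.88 and 7.14 at 18 months. All 8 samples of the later ages lay above the 3 young samples, while those of 10 and 18 months overlapped. The log2 change was 0.97 ± 0.18 (SE, limma) at 18 against 2 months, with a 95% interval of 0.58 to 1.37 and an adjusted p of 0.0116. At 10 against 2 months it was 0.79 ± 0.18 with an adjusted p of 0.0572, just short of the threshold, and at 18 against 10 months 0.18 ± 0.17 (adjusted p 0.848). The other Chrna5 probe set, 1442035_at, had log2 levels of 7.94, 7.66 and 7.99 at 2 months, 8.10, 8.18, 8.23 and 7.88 at 10 months and 7.93, 8.36, 7.71 and 7.94 at 18 months. These ages overlapped, and the log2 change at 18 against 2 months was 0.12 ± 0.16 (adjusted p 0.697) with an interval of −0.22 to 0.46, whose upper end lies under the lower end of the interval of 1427401_at. The difference between the probe sets of 1 gene was not tested, so the rise of Chrna5 rests on 1 of its 2 probe sets, and where each probe set lies in the transcripts was not analysed here.

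RefSeq (GRCm38.p6) holds 2 promoter windows for Chrna5, which are shown, beside that of Chrna7, because these are the genes with a called probe set for which the table has an entry. Each is the 250 bases before a transcript start, 5′ to 3′ on the gene's strand, with GGGCGG and its complement CCGCCC, the GC box, in capitals.
Chrna5, chr9:54980630-54980879, plus strand: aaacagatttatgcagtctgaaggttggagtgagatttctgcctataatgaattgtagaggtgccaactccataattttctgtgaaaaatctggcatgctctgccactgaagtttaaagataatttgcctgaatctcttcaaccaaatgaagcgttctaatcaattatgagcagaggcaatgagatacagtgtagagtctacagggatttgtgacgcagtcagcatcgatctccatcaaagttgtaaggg
Chrna5, chr9:54981238-54981487, plus strand: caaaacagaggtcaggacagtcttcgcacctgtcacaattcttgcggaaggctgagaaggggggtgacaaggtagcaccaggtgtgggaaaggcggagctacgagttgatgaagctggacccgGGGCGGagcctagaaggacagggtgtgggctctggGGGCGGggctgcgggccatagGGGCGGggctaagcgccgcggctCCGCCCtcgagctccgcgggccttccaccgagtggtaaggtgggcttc
Chrna7, chr7:63212527-63212776, minus strand: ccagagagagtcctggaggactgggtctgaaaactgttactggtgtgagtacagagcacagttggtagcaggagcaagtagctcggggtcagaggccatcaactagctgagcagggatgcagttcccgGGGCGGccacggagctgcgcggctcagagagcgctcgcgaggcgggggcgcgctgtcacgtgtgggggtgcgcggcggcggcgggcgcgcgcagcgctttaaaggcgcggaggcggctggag
The windows of Chrna5 differed from each other in base composition. The upstream one had 40% G and C, 3 CpG and no GC box, and the downstream one 65.2% G and C, 17 CpG and 4 GC boxes, while that of Chrna7 had 67.2% G and C, 25 CpG and 1 GC box. Over 32851 windows of this length from all genes the median was 52.4% G and C and 6 CpG, and 32.7% held a GC box on either strand. Counting every window, 7 were found for 6 of the 8 genes (Chrna3, Chrna4, Chrna7, Chrnb2 and Chrnb4 with 1 each), and none for Chrna6 or Chrnb3 was used. Motifs were counted on both strands whether or not they overlapped another. None of the 7 held TATAAA on either strand, which 12.4% of all windows did, and GC boxes were found in the windows of Chrna3, Chrna4, Chrna5 and Chrna7. CANNTG, the E box, stood in 6 of the 7 windows, all but that of Chrna4, against 66.2% of all windows.

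Chrnb3, the other accessory subunit, has the single probe set 1451842_a_at. Its log2 levels were 7.38, 7.29 and 7.36 at 2 months, 8.20, 7.74, 8.45 and 7.54 at 10 months and 7.86, 8.65, 7.84 and 8.13 at 18 months. The young samples lay within 0.1 of each other and under every later sample, and the later ages overlapped and were spread more widely. The log2 change of 0.78 ± 0.23 at 18 against 2 months did not pass (adjusted p 0.0661 over all probe sets, limma), nor did that of 0.64 ± 0.23 at 10 against 2 months (adjusted p 0.2). Chrnb3 passed in 2 of the alternatives, at 18 against 2 months with the 12 arrays kept separate and without 10-month array 3. More of all probe sets were called there too, 9.9% and 11.8% against 7.46% as reported.

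Chrna6, the alpha subunit whose expression in brain is mostly limited to catecholaminergic neurons, the visual system and a few other cell groups, had 2 probe sets. Probe set 1450427_at had log2 levels of 10.98, 11.32 and 11.53 at 2 months, 11.97, 11.58, 11.87 and 11.71 at 10 months and 11.998, 12.17, 11.79 and 11.87 at 18 months. Each of the 8 later samples was above the young ones, narrowly so for 10-month array 2, and the later ages overlapped. It rose by 0.68 ± 0.15 on the log2 scale at 18 against 2 months (interval 0.35 to 1.01, adjusted p 0.0226, limma). The change at 10 against 2 months was 0.51 ± 0.15 (adjusted p 0.121), and that at 18 against 10 months 0.17 ± 0.14 (adjusted p 0.848).

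The second Chrna6 probe set, 1450426_at, had log2 levels of 7.87, 7.69 and 7.84 at 2 months, 8.79, 7.67, 8.61 and 7.79 at 10 months and 8.37, 8.51, 8.82 and 8.56 at 18 months. All 18-month samples were above the young ones, and the 10-month samples fell apart into arrays 1 and 3 near the 18-month levels and arrays 2 and 4 near the young ones. Its log2 change at 18 against 2 months was 0.76 ± 0.25 (interval 0.22 to 1.31), near that of 1450427_at in size, but with its larger error the adjusted p was 0.0847. Both Chrna6 probe sets therefore had positive changes whose intervals lay above 0, and 1 was called.

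Chrna7, which forms the homomeric α7 channel with its high calcium permeability, was measured by 2 probe sets that differed. Probe set 1440681_at had log2 levels of 9.83, 9.82 and 10.17 at 2 months, 10.22, 9.84, 10.63 and 10.35 at 10 months and 10.81, 10.75, 10.42 and 10.71 at 18 months. The means were in the order of age, the samples of 10 months overlapped with both other ages, and those of 18 and 2 months did not overlap. The probe set rose by 0.74 ± 0.18 on the log2 scale at 18 against 2 months (interval 0.35 to 1.12, adjusted p 0.0296, limma). The change was 0.32 ± 0.18 at 10 against 2 months (adjusted p 0.423) and 0.41 ± 0.16 at 18 against 10 months, where its unadjusted p of 0.0269 was the smallest of the 18 and the adjusted p 0.847.

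The other Chrna7 probe set, 1450299_at, had log2 levels of 5.70, 5.72 and 5.73 at 2 months, 5.57, 5.66, 5.65 and 5.53 at 10 months and 5.51, 5.65, 5.64 and 5.56 at 18 months. Every later sample was below the young ones, by a small amount. Its log2 change of −0.13 ± 0.09 at 18 against 2 months did not pass (interval −0.32 to 0.07, adjusted p 0.429). The interval lay wholly below that of 1440681_at, so that the rise of Chrna7 also rests on 1 of its 2 probe sets.

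**Figure D2:**
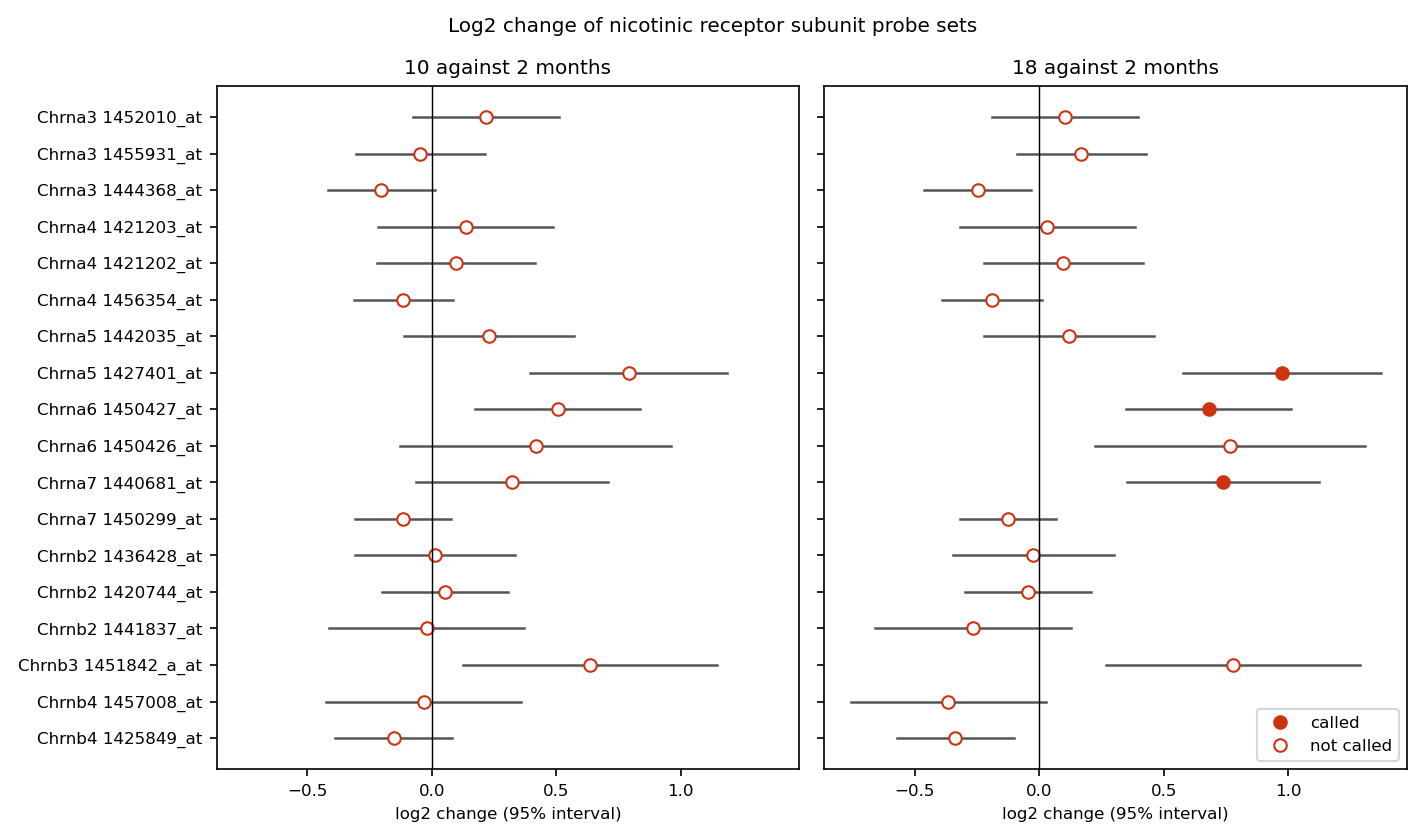
Log2 change (horizontal axis, with its 95% interval) of the 18 subunit probe sets at 10 against 2 months (left) and 18 against 2 months (right), with filled points for called probe sets. At 18 against 2 months the filled points are Chrna5 1427401_at at 0.97, Chrna6 1450427_at at 0.68 and Chrna7 1440681_at at 0.74, and no point is filled at 10 against 2 months.

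Chrna4, the alpha subunit of the high-affinity nicotine receptor, had no probe set that passed. At 1421203_at the log2 levels were 8.81, 8.20 and 8.72 at 2 months, 8.81, 8.94, 8.51 and 8.58 at 10 months and 8.59, 8.45, 8.78 and 8.60 at 18 months. The ages overlapped throughout, and the log2 change at 18 against 2 months was 0.03 ± 0.16 (adjusted p 0.93, limma) with an interval of −0.32 to 0.38, which reaches just past the 1.3-fold threshold of 0.38. At 1421202_at the log2 change was 0.10 ± 0.15 with overlapping samples. At 1456354_at it was −0.19 ± 0.09 (adjusted p 0.233), with all 18-month samples (5.73, 5.77, 5.70 and 5.58) below the young ones (5.79, 5.91 and 5.96).

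Chrnb2, the partner of α4 and of α6, gave like values. At 1436428_at the log2 levels were 8.93, 8.68 and 9.18 at 2 months, 9.01, 9.05, 8.64 and 9.07 at 10 months and 8.88, 8.79, 9.09 and 8.85 at 18 months. The 3 ages overlapped, and the log2 change was −0.02 ± 0.15 at 18 against 2 months (interval −0.35 to 0.30, adjusted p 0.944, limma). Probe set 1420744_at changed by −0.05 ± 0.12 (interval −0.30 to 0.21) and 1441837_at by −0.27 ± 0.18 (interval −0.66 to 0.13), both with overlapping samples. In this fit the intervals of 1436428_at and 1420744_at exclude a change of 1.3-fold in either direction. In the fit with the 3′ minus 5′ difference of control probe sets, described below, they changed by −0.001 ± 0.42 and −0.46 ± 0.30. With those errors a change of 1.3-fold was not excluded.

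Chrna3 and Chrnb4, which pair in habenular and ganglionic receptors, were next. The Chrna3 probe set 1452010_at had log2 levels of 7.75, 7.91 and 8.09 at 2 months, 8.27, 8.33, 7.88 and 8.06 at 10 months and 7.99, 8.19, 8.001 and 7.89 at 18 months. The ages overlapped and the change at 18 against 2 months was 0.10 ± 0.13 (adjusted p 0.705, limma). Probe set 1455931_at had a log2 change of 0.17 ± 0.12, its young samples lying between 7.06 and 7.12 and its 18-month samples between 6.995 and 7.48. Probe set 1444368_at was the only one of the 18 whose mean was below the lower quartile of all values (4.56). It had a log2 change of −0.25 ± 0.10 (adjusted p 0.151, limma), with no overlap between 18 months (3.56 to 3.77) and 2 months (3.85 to 4.05). The value of 3.85 is the average of young arrays 3 and 4, which held 3.67 and 4.03. Taken alone, young array 3 lies within the 18-month range.

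Chrnb4 had negative log2 changes at 18 against 2 months at both of its probe sets. Both were dim, with mean log2 levels of 5.10 (1457008_at) and 4.84 (1425849_at), not far above the lower quartile of all values (4.56). Probe set 1457008_at had log2 levels of 5.25, 5.11 and 5.37 at 2 months, 5.55, 5.28, 4.76 and 5.26 at 10 months and 5.05, 4.77, 5.08 and 4.61 at 18 months. Its log2 change at 18 against 2 months was −0.37 ± 0.18 (interval −0.76 to 0.03, adjusted p 0.244, limma). Probe set 1425849_at had log2 levels of 5.10, 5.08 and 4.87 at 2 months, 4.80, 5.04, 4.74 and 4.87 at 10 months and 4.77, 4.59, 4.73 and 4.61 at 18 months. Its change was −0.34 ± 0.11 (interval −0.57 to −0.10, adjusted p 0.0806). In both, all 18-month samples were below all young samples, and neither was called.

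At 10 against 2 months 0 of the 18 probe sets were called, against 1.36% of all probe sets, and 3 had an unadjusted p under 0.05, those of Chrna5 1427401_at, Chrna6 1450427_at and Chrnb3, against 15.6% of all. The samples of 10 and 2 months did not overlap in 5 probe sets (higher for Chrna5 1427401_at, Chrna6 1450427_at and Chrnb3, lower for Chrna3 1444368_at and Chrna7 1450299_at), against 12.6% of all. For Chrna3 1444368_at this holds only with young arrays 3 and 4 averaged, as young array 3 alone (3.67) lies within the 10-month values. The median log2 change of the 18 was 0.07, beside −0.01 over all. At 18 against 10 months 0 of the 18 were called, against 0.00222% (1 probe set of all), 1 had an unadjusted p under 0.05, against 5.06%, and 0 were without overlap, against 2.73%. The median log2 change was −0.04, beside −0.03 over all. The question of whether the change from 2 to 10 months differed in size from that between 10 and 18 months was tested directly. None of the 18 passed, as 0% of all probe sets did, and none had an unadjusted p under 0.05, against 5.47% of all (limma). The largest such difference was that of Chrna5 1427401_at, 0.61 ± 0.30 on the log2 scale with an interval of −0.04 to 1.26. The comparisons with 2 months share the young samples, and those with 10 months share the middle-aged ones.

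Within the 8 genes, samples with a high Chrna5 1427401_at value also tended to have a high Chrna6 1450427_at value (Pearson's r 0.911 over the 11 samples, a description in which the age difference of both takes part). Correlations with Chrnb4 1425849_at were as strong in the other direction, −0.905 for Chrna5 1427401_at and −0.925 for Chrna7 1440681_at. By the same measure, at the brightest probe set of each gene among 18192 genes, the patterns most like that of Chrna6 were those of Bid (0.981), Ero1a (0.977) and Asph (0.972). Those most like Chrna7 were Plekha3 (0.987), Klhl28 (0.977) and Agfg1 (0.975), and those most like Chrnb3 were Bnip3 (0.952), Herc4 (0.940) and Cfap300 (0.939). For the brightest Chrna5 probe set, which was not called, they were Thsd4 (0.862), Tyrp1 (0.858) and Arnt (0.857). Chrna3 was most like Lcmt1 (0.951), Chrna4 like Dpysl5 (0.944), Chrnb2 like 2700049A03Rik (0.951) and Chrnb4 like Guca2a (0.956). These are the highest of 18192 values each, all from the same 11 arrays.

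Of 8 other nicotinic subunits listed, 7 were measured. These were those of muscle (Chrna1, Chrnb1, Chrnd, Chrne and Chrng) and Chrna2 and Chrna9, and none passed in any comparison. At the brightest probe set of each gene, 0 of 7 were called higher or lower at 18 against 2 months. Of all probe sets, dim and unnamed ones included, 7.46% were called. The log2 changes of the 7 ran from −0.17 to 0.09. Of the genes for acetylcholine synthesis, release and breakdown 0 of 7 were called. Chat, the enzyme that makes acetylcholine, had log2 levels of 5.23 ± 0.02 at 18 months and 5.26 ± 0.16 at 2 months (SD, n = 4 and 3) and a change of −0.03 ± 0.11, and Ache, which breaks it down, a change of 0.53 ± 0.27 (adjusted p 0.266, limma). Slc18a3, the vesicular acetylcholine transporter, and Slc5a7, the choline transporter, lay below the lower quartile of all values at every age. Of the 5 muscarinic receptors, the G protein-coupled receptors of the same transmitter, 3 were measured and 0 called. Chrm3 and Chrm4 had mean log2 levels of 3.87 and 3.81, also below the lower quartile.

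Of 12 genes for the assembly and modulation of nicotinic receptors, 0 rose and 1 fell at 18 against 2 months. Over all probe sets, which are not limited to the brightest of each gene, 4.55% were called higher and 2.91% lower. The median log2 change of the 12 was 0.11, beside −0.02 over all 18193 genes. Lypd1, a membrane-anchored protein of the Ly6 family that dampens nicotinic currents, had log2 levels of 9.42 ± 0.16 at 18 months, against 10.10 ± 0.47 at 2 months (SD, n = 4 and 3), and fell by 0.68 ± 0.18 (SE, adjusted p 0.0477, limma). Its relative Lypd6 had a change of 0.63 ± 0.19 (adjusted p 0.0607) and Lynx1, which holds nicotinic responses down in cortex, −0.19 ± 0.11 (adjusted p 0.3). The chaperones of α7 did not pass, with 0.88 ± 0.34 for Tmem35a, also called NACHO (adjusted p 0.137), and 0.71 ± 0.29 for Ric3 (adjusted p 0.166). Ywhah, a 14-3-3 protein of the family that binds the α4 subunit, had a change of 0.55 ± 0.16 (adjusted p 0.0577). None of the 12 was called at 10 against 2 or at 18 against 10 months.

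**Figure D3:**
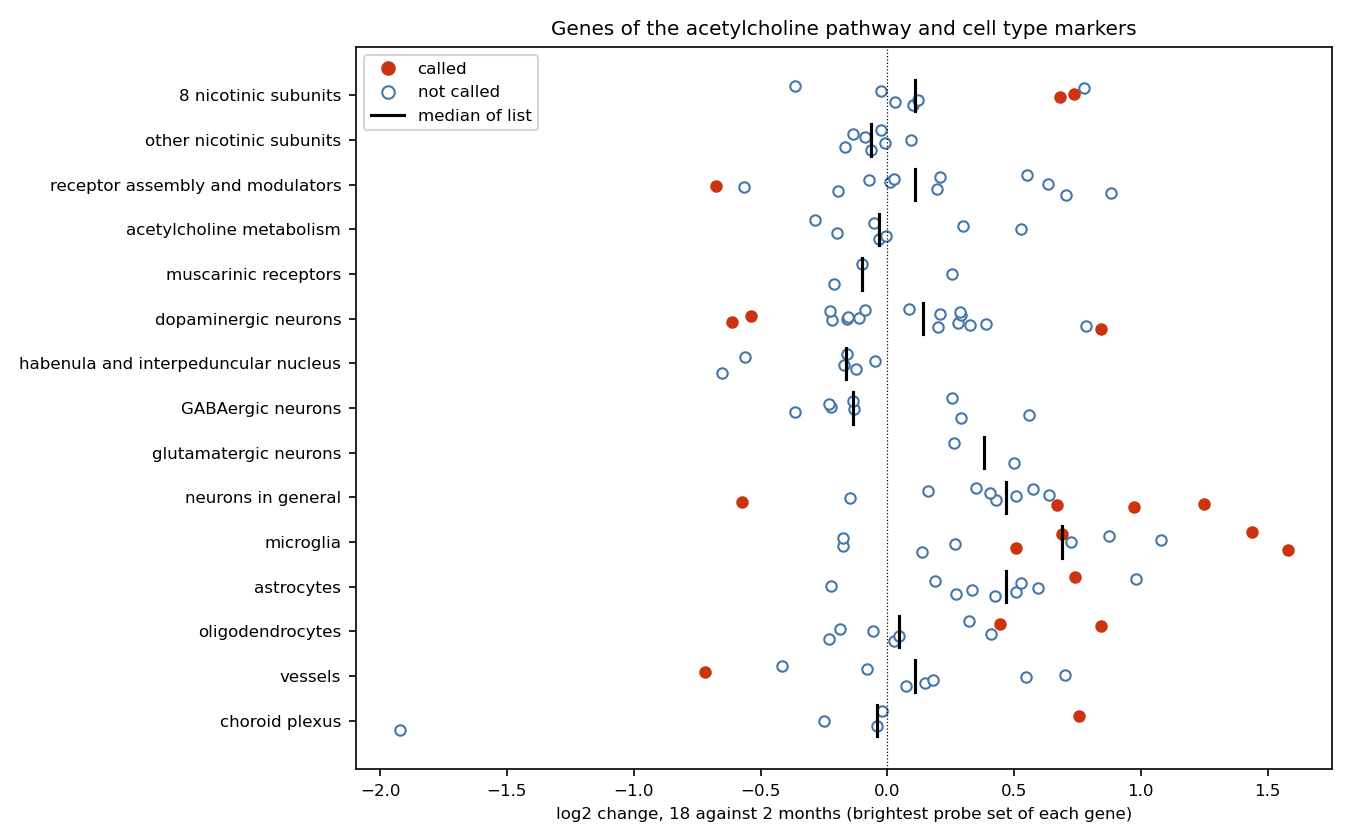
Log2 change at 18 against 2 months (horizontal axis) at the brightest probe set of each gene, for the 8 subunits, other genes of acetylcholine signalling and cell type markers (rows). Filled points are called genes and black lines are medians of the lists; the subunits have 2 filled points at their brightest probe sets, Chrna6 and Chrna7, and the row of assembly and modulatory genes has 1, Lypd1 at −0.68.

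Some markers of cell types in or near the VTA also changed with age, and their part in the subunit values was not tested. Beside the counts of marker genes, 7.46% of all probe sets were called at 18 against 2 months. The markers are counted as genes at their brightest probe set, while this share takes in dim and unnamed probe sets. With dim probe sets left out it was 10.2%, and the share among genes at their brightest probe set was not computed. Of all probe sets 4.55% were called higher and 2.91% lower. Of 18 dopaminergic markers 1 rose (Th, 0.84 ± 0.14, adjusted p 0.00735, limma) and 2 fell (Foxa2, −0.61 ± 0.15, and En1, −0.54 ± 0.11), while Slc6a3 had a change of 0.20 ± 0.09 (adjusted p 0.217). The mean log2 level of this list was 10.54 to 10.70 at 18 months, against 10.43 to 10.63 at 2 months. Of 12 general neuronal markers 3 rose (Snap25, Syt1 and Stmn2) and 1 fell (Rbfox3), with mean log2 levels of 12.03 to 12.39 at 18 months and 11.56 to 11.95 at 2 months. No marker of the habenula and interpeduncular nucleus was called (0 of 6). Gpr151 had log2 levels of 4.74 ± 0.07 at 18 months and 4.87 ± 0.30 at 2 months, and Pou4f1 6.32 ± 0.38 and 6.97 ± 0.26, with changes of −0.12 ± 0.18 and −0.65 ± 0.27 (adjusted p 0.165). The mean log2 level of that list was 6.53 to 6.67 at 18 months, against 6.69 to 6.99 at 2 months, without overlap. Of GABAergic markers 0 of 8 and of glutamatergic markers 0 of 2 were called.

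Some glial markers were called as well, beside 4.55% of all probe sets called higher and 2.91% called lower. Among microglial genes 9 of 11 changes were positive, and those of Csf1r (−0.18) and C1qb (−0.17) were negative. Of 11 microglial genes 4 rose at 18 against 2 months (P2ry12, Tmem119, Ctss and Cd68), with mean log2 levels of 8.84 to 9.32 at 18 months and 8.34 to 8.66 at 2 months. In astrocytes 1 of 10 rose (Slc4a4), in oligodendrocytes 2 of 9 (Ermn and Aspa), and in vessels 1 of 8 fell (Pdgfrb). The mean log2 level of the astrocyte list was 11.29 to 11.61 at 18 months, against 10.99 to 11.10 at 2 months, and that of the oligodendrocyte list 12.21 to 12.23, against 12.03 to 12.07, so that neither list overlapped between these ages. That of the vessel list was 8.50 to 8.95 at 18 months, against 8.62 to 8.66 at 2 months. Of 5 choroid plexus genes 1 rose (Clic6, 0.76 ± 0.19) and 0 fell, and the median log2 change was −0.04. Ttr, the defining transport protein of the choroid plexus, had a change of −1.92 ± 0.70 (adjusted p 0.122, limma), with log2 levels of 6.36 ± 0.64 at 18 months and 8.29 ± 1.43 at 2 months (SD, n = 4 and 3).

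Technical measures differed between the ages. The 3′ minus 5′ difference of the control probe sets of Actb and Gapdh, which grows as fewer transcripts are copied to their 5′ end, was 3.47 ± 0.17 log2 units at 2 months, 2.15 ± 0.34 at 10 months and 1.98 ± 0.24 at 18 months (SD, n = 3, 4 and 4), and the young samples did not overlap with the others. The mean log2 level of the poly-A control RNAs added to the samples also differed, at 6.15 ± 0.13 at 2 months, 6.48 ± 0.08 at 10 months and 7.04 ± 0.34 at 18 months (SD, n = 3, 4 and 4), with no overlap between any of the ages, and its part in the subunit values was not tested. In a fit that took the 3′ minus 5′ value of each sample into account, 0 of the 18 subunit probe sets were called at 18 against 2 months, as were 0% of all probe sets. The log2 changes were then 0.47 ± 0.50 for Chrna5 1427401_at, 0.40 ± 0.43 for Chrna6 1450427_at and 0.80 ± 0.51 for Chrna7 1440681_at, and that of Chrna6 1450426_at was −0.87 ± 0.48. Age and the 3′ minus 5′ difference largely coincide in these arrays, and their parts cannot be told apart.

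**Figure D4:**
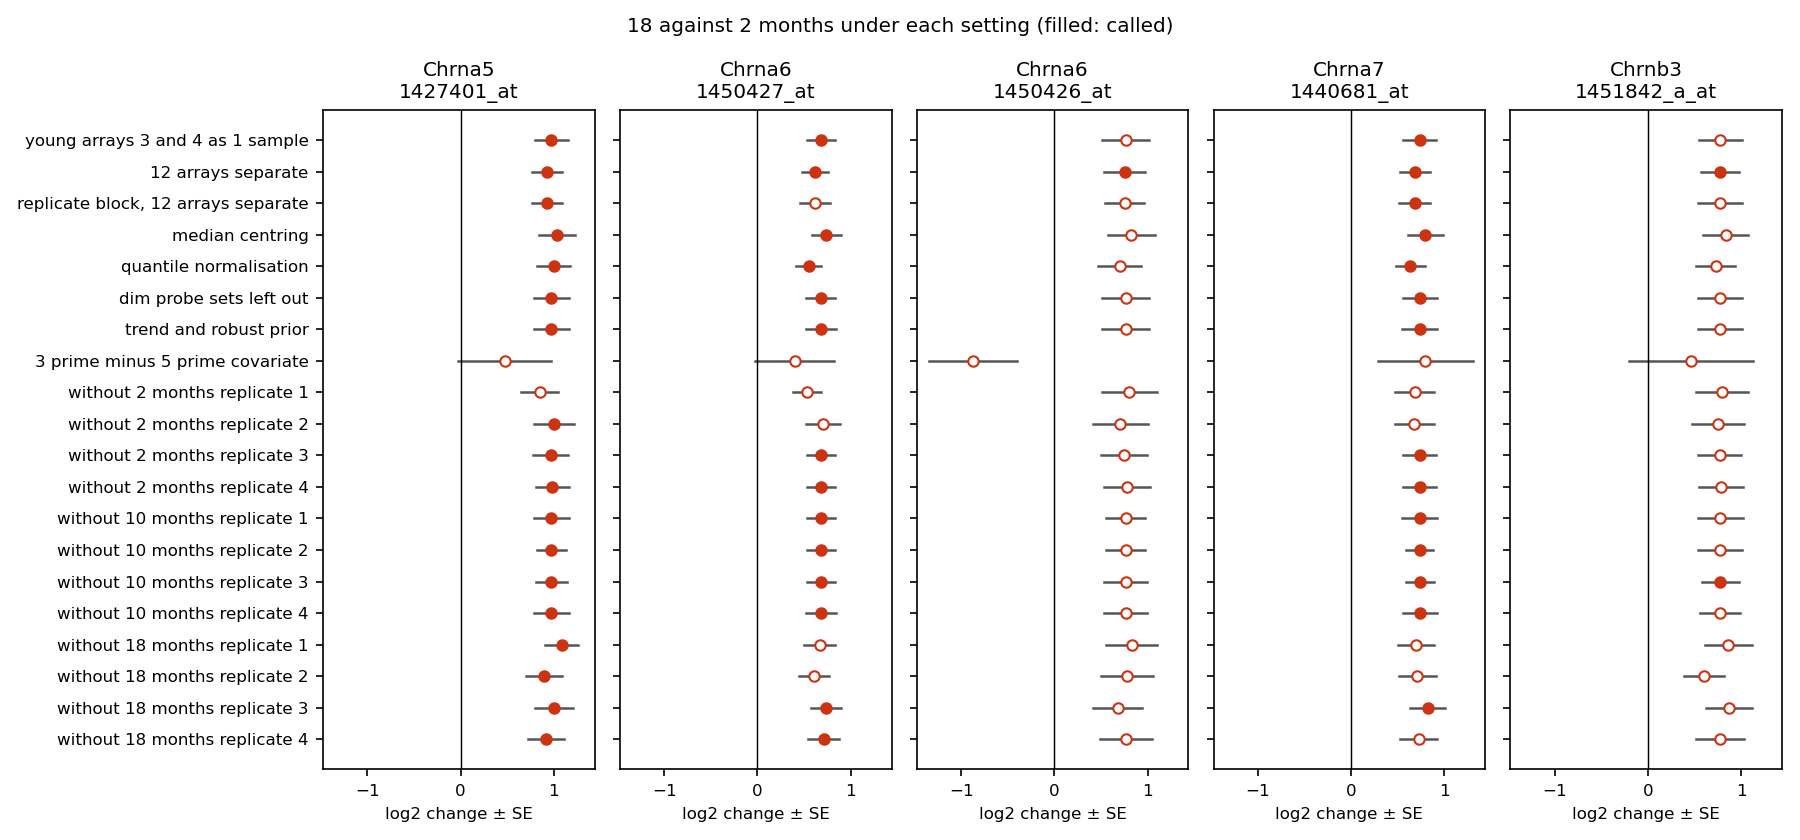
Log2 change ± SE at 18 against 2 months (horizontal axis) of 5 subunit probe sets under each processing alternative (rows, with the reported setting on top), with filled points where the probe set was called. Chrna5 1427401_at is filled in all rows but those of the 3′ minus 5′ covariate and of young array 1 left out, and Chrna6 1450426_at turns negative, at −0.87, with the covariate.

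The calls depended on single arrays. Without young array 1 none of the 3 probe sets was called, and without young array 2, 18-month array 1 or 18-month array 2 only that of Chrna5 was. Without 18-month array 4 the probe sets of Chrna5 and Chrna6 were called and that of Chrna7 was not. Fewer of all probe sets were called in these fits too. The share was 0.939% without young array 1, against 7.46% as reported, and it was also below 7.46% without each of the other arrays named. It was below 7.46% without 18-month array 3 as well, where the 3 subunit probe sets stayed called. The log2 changes of the 3 probe sets were positive in every alternative run, from 0.47 to 1.08 for Chrna5 1427401_at, 0.40 to 0.74 for Chrna6 1450427_at and 0.63 to 0.82 for Chrna7 1440681_at.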

How the data were processed

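RNA of the VTA was hybridised to 12 Affymetrix Mouse Genome arrays after amplification in a pair of labelling cycles. Values were deposited as log2 expression per probe set, normalised by the authors with RMA (submitters' processing notes: RMA and limma 3.4.5). No read depth exists for arrays, and their number limits the precision. The scanner files were not used here. Groups came from the age label. The file held 45101 probe sets, and 64 control probe sets were left out of the tests.

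Young arrays 3 and 4 differed by less than other replicates (over 1 log2 unit in 1 probe set, against 85 to 4905 in other pairs) and were averaged. This was decided with the counts for separate arrays known from earlier results. Limma 3.58.1 in R 4.3.3 was fitted to all 3 ages with no covariate, with Benjamini-Hochberg adjustment over 45037 probe sets. Calls used the thresholds of the study's methods (adjusted p under 0.05 and over 1.3-fold), except that the test of unequal intervals had no fold threshold. The procedure was tested on simulated data.

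The subunits and the gene lists were chosen with earlier results of these data known. Named were all 18 member probe sets, from each list the called genes (at most the 4 with the largest change), Th, Slc6a3, Chat, Gpr151 and Pou4f1, and for each subunit's brightest probe set up to 3 genes with the most similar pattern. Other genes are named for their role or for a value near the threshold and were chosen after their values were seen. The mean level of a list is the mean log2 value of its genes in a sample, each at its brightest probe set. Calls in a list are likewise counted by gene, while the shares given beside them are of all probe sets. Gene names of probe sets are those of the array's annotation (34945 with 1 gene, 932 with several and not named, 9160 with none), and promoters came from RefSeq (GRCm38.p6). The array's annotation names no build, so no positions of probe sets are given. Alternatives were separate arrays, a replicate block, other scalings, leaving out dim probe sets, another variance prior, the 3′ minus 5′ covariate and leaving out each array.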

Additional observations from a re-analysis of the deposited data

Results flagged for a closer look

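In 36 groups of 4 samples (18 probe sets at 10 and at 18 months), the gap of the farthest sample from its nearest neighbour, divided by the range of the group, was past Dixon's 95% limit in 2, and chance gives about 1 in 20. Chrnb2 1436428_at at 10 months had 8.64 in array 3, against 9.01 to 9.07 in the others (ratio 0.863). Chrnb2 1420744_at at 18 months had 6.40 in array 3, against 6.13 to 6.15 in the others (ratio 0.930).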

How the results depend on the processing

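At 18 against 2 months, 3 subunit probe sets were called as reported, beside 7.46% of all probe sets. With the 12 arrays separate 5 were called (adding Chrna6 1450426_at and Chrnb3), beside 9.9% of all. With the 3′ minus 5′ covariate 0 were called, beside 0% of all. Leaving out 1 array gave 0 to 4 calls (0 without young array 1, 4 without 10-month array 3, which added Chrnb3). Of all probe sets, 0.939% were called without young array 1 and 11.8% without 10-month array 3. At 10 against 2 months, 0 were called as reported, 1 with separate arrays and 1 with quantile normalisation (Chrna5 1427401_at each time), and 0 to 1 on leaving out 1 array (1 without young array 4 or without 10-month array 2). At 18 against 10 months the count was 0 in every alternative run. The cause of these moves was not tested. Median centring, quantile normalisation, leaving out dim probe sets and another variance prior kept the 3 calls at 18 against 2 months. Same-numbered arrays of the 3 ages did not deviate together (correlations −0.611 to 0.431), and 0 of 12 arrays correlated best with their own number. These values gave no sign that the numbers pair the samples, and shared handling of same-numbered arrays was not tested. With the replicate number as a block on separate arrays, 2, 0 and 0 probe sets were called in the 3 comparisons, and Chrna6 1450427_at was lost (0.62 ± 0.16, adjusted p 0.0591). Means of 3 or 4 pools limit what can be detected.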
